A study of Bos taurus with 36 samples.

Results

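DNA methylation is written on cytosines next to guanines by the DNMT enzymes, kept through cell division by DNMT1 together with UHRF1, and removed stepwise by the TET enzymes and by base excision repair that starts with TDG. The marks are read by methyl-CpG binding proteins such as MBD2. In the embryo these marks are largely erased and rewritten, and the levels of writers and erasers then differ between tissues and cell lineages. The RNA levels of 9 genes of this machinery were described here: the maintenance pair DNMT1 and UHRF1, the de novo writers DNMT3A and DNMT3B, the oxidising erasers TET1, TET2 and TET3, the glycosylase TDG and the reader MBD2. They were chosen by symbol and are 9 of the 35092 genes in the count table. Their Entrez identifiers in the table are 281119 (DNMT1), 530411 (UHRF1), 359716 (DNMT3A), 353354 (DNMT3B), 513640 (TET1), 538481 (TET2), 101904937 (TET3), 517825 (TDG) and 100337206 (MBD2).

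The RNA came from the heart, the gonads and the liver of 10 male bovine fetuses aged 42 days, and from blood of their recipient heifers. All fetuses grew from a Day 7 embryo, placed in 5 heifers on Day 7 of their cycle (group ET_D7, synchronous) and in the other 5 on Day 9 (group ET_D9, asynchronous, a transfer model used to obtain fetuses that differ in growth). Fetal weight ran from 1.253 to 1.690 g, and the heaviest ET_D7 fetus (1.370 g) was lighter than the lightest ET_D9 fetus (1.396 g), so that the groups did not overlap in weight. Fetus 1 was the lightest and fetus 10 the heaviest, and a blood library carries the number of the fetus. Libraries of organ RNA were made with a stranded mRNA kit and those of blood with another kit, after samples of low RNA integrity had been discarded. There were 9 heart, 9 gonad, 8 liver and 10 blood libraries, with totals from 18231089 to 40812354 counts, and in such bulk samples fewer cells of a type and less RNA per cell cannot be told apart.

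Several libraries stood apart and bear on what follows. In the libraries labelled gonads, fetuses 6 and 8 differed by less than counting error, and so did fetuses 1 and 2 in the liver. Each such pair was averaged and counted as 1 sample, which left 9 heart, 8 gonad and 7 liver samples. The liver library of fetus 9 also matched a weighted sum of those of fetuses 8 and 10, with a residual of 0.261 of counting error. In 5 libraries (heart 1, gonads 8, liver 1, 8 and 10) the share of even numbers among counts up to 20 was 47.2% to 59.7%. It was 66.9% to 77.3% in the other organ libraries and 83.8% to 87.9% in blood. Relative to those, the 5 are called libraries with few even counts. Results were therefore also computed without the 5, and organ contrasts and liver slopes also without the liver of fetus 9. In the pair labelled gonads 6 and 8, 8 of the 9 genes stood at the common ratio of the libraries within 0.053%, whereas TET3 stood 24.7% above it (1160 and 1842 counts). The library labelled gonads of fetus 1 stood apart as well. Over genes with a mean of at least 200 counts, the ratio of another such library's count to its count was taken. The top 5% of these ratios began at 5.19 (fetus 7) to 17.9 (fetus 8). Between the other libraries labelled gonads it began at 2.72 at most (fetuses 7 and 8). Organ contrasts and the spline of these libraries were also computed without that library.

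The heart, liver and blood libraries held the defining markers of their labels, but the libraries labelled gonads held those of a testis at low levels. Of 14 kidney and mesonephros markers, 10 were higher there than in both other organs, led by EYA1 (median 124 CPM, a count scaled to the normalized library total) and PAX2 (118 CPM), early regulators of the kidney. In the liver, 3 of the 14 were higher than in both others. Of 9 Sertoli cell markers, 4 had a median of 1 CPM or more (summed median 36.8 CPM, of which PTGDS 28.9 CPM) and 0 were higher than in both other organs. The regulators GATA4 and DMRT1 had medians of 0.05 and 0.09 CPM. The regulator SOX9 had a median of 3.29 CPM, against 2.48 CPM in the heart and 0.29 CPM in the liver. Of 8 germ cell markers, 2 had a median of 1 CPM or more (PRDM1 and DND1) and 1 was higher than in both other organs, while DAZL and NANOG had a median of 0. Of 7 Leydig cell markers, 1 had a median of 1 CPM or more (STAR, 6.53 CPM) and 0 were higher than in both others. The libraries are therefore called by their label throughout, without a claim on the tissue they hold. Heart muscle genes, summed, reached 2126 CPM in the liver of fetus 3, against 41.1 CPM in that of fetus 10, and 3334 CPM in the blood library of fetus 2, against 1.01 CPM in that of fetus 9. ACTC1 led the sum in the liver of fetus 3 (1939 CPM), and MYH7 in the blood library of fetus 2 (3140 CPM). TNNT2, with a median of 11967 CPM in the heart, was at most 35.4 CPM in liver and 0.17 CPM in blood. The sums are given without a claim on the tissue they come from.

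All 9 genes were detected in every library, with TDG in the heart of fetus 2 the lowest, at 33 counts. Between organs, the 3 contrasts were fitted over 25054 genes with edgeR's quasi-likelihood test, and a gene was called at a Benjamini-Hochberg adjusted p under 0.05. Between the libraries labelled gonads and the heart, 6 of the 9 genes were higher in the former (22.9% of all genes) and 0 lower (22.7%). Between the libraries labelled gonads and the liver, 7 were higher in the former (30% of all genes) and 1 lower (32.6%). Between heart and liver, 4 were higher in the heart (27%) and 4 lower (30.3%). In the libraries labelled gonads, 5 of the 9 genes were higher than in both other organs (DNMT3B, UHRF1, TET1, TET3 and TDG), where 14.6% of all genes were, and 0 were lower (12.9%). In the liver, 4 were lower than in both others (DNMT3A, TET1, TET2 and TET3), against 19% of all genes, and MBD2 was higher, against 22.5%. In the heart, 3 were lower than in both others (DNMT1, DNMT3B and UHRF1), against 8.07% of all genes, and 0 were higher (10.6%). Counting libraries instead of calls, 0 of the 9 genes had every heart library above (5.26% of all genes), every liver library above (9.8%) or every library labelled gonads below (4.39%) all other organ libraries. The median log2 difference of the 9 genes was 1.05 for labelled gonads against heart and 0.91 for labelled gonads against liver, where those of all genes were 0.09 and 0. For heart against liver it was 0.47, where that of all genes was 0. Because the number of bases per gene model was not used here, levels are compared between samples and not between genes. The levels below are CPM normalized over the organ libraries.

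**Figure D1:**
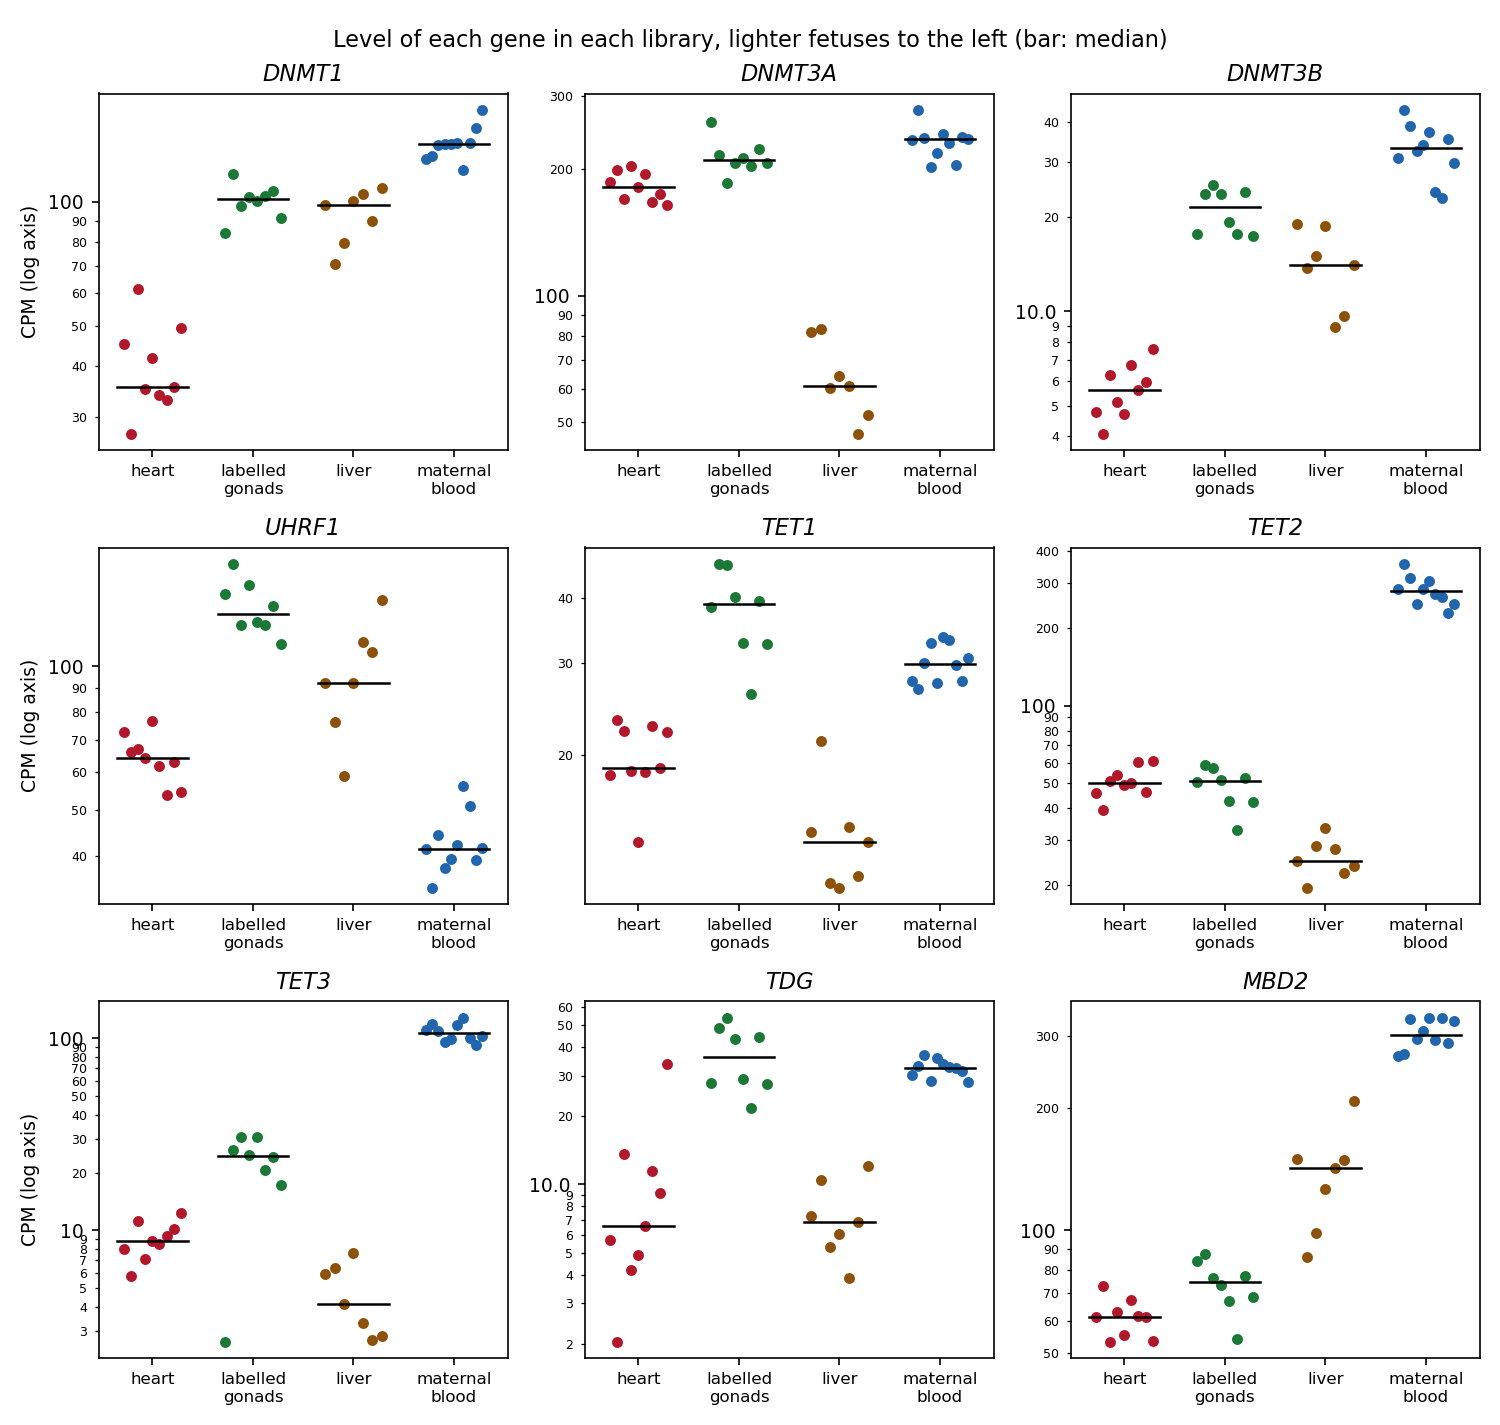
Level of each of the 9 genes (CPM normalized over all 4 tissues, log axis) in each library, by tissue, with lighter fetuses to the left and a bar at the median. TET2, TET3, MBD2 and DNMT1 are higher in every blood library than in any organ library, and the heart has the lowest medians of DNMT1 and DNMT3B.

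DNMT1, which copies methylation onto the new DNA strand, was lowest in the heart. Its level there was 26.2 CPM at the lowest, 34.1 at the median and 58.7 at the highest. In the libraries labelled gonads it was 80.3 CPM at the lowest, 97.4 at the median and 112 at the highest. In the liver it was 67.7 CPM at the lowest, 94.2 at the median and 103 at the highest. Every heart library was thus below every other organ library, a pattern that 2.22% of all genes showed. DNMT1 was 2.31-fold lower in heart than in liver (log2 -1.21, SE 0.13, adjusted p = 1.5e-08) and 2.49-fold higher in the libraries labelled gonads than in heart (log2 1.32, SE 0.13, adjusted p = 3.67e-09). The libraries labelled gonads and the liver overlapped and were not called different (log2 0.11, SE 0.14, adjusted p = 0.497), and the sign turned with DESeq2 size factors (log2 -0.05).

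UHRF1, which recognises hemimethylated DNA and brings DNMT1 to it, was also lowest in the heart, but the spread in the liver was wide. It was 51.5 CPM at the lowest, 61.6 at the median and 73.6 at the highest in the heart. It was 107 CPM at the lowest, 124 at the median and 158 at the highest in the libraries labelled gonads. It was 56.3 CPM at the lowest (fetus 4), 88.5 at the median and 132 at the highest (fetus 10) in the liver. The liver range overlapped with both other organs. UHRF1 was 1.5-fold lower in heart than in liver (log2 -0.59, SE 0.13, adjusted p = 0.000411), 2.07-fold higher in the libraries labelled gonads than in heart (adjusted p = 1.26e-07) and 1.38-fold higher than in liver (log2 0.46, SE 0.14, adjusted p = 0.00452).

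The number of UHRF1 counts per DNMT1 count within a library does not depend on how libraries are scaled. Its median was 1.77 in the heart, 1.25 in the libraries labelled gonads and 1.08 in the liver. The ratio was 1.60-fold higher in heart than in liver (exact two-sided permutation test over 9 and 7 samples, p = 0.00175, Benjamini-Hochberg p = 0.00393 over 9 ratio comparisons) and 1.3-fold higher in the libraries labelled gonads than in liver (exact permutation p = 0.00404, adjusted 0.00727). Paired by fetus, the second difference could not pass, since 5 fetuses allow no exact p below 0.0625 (paired p = 0.125). The permutation takes samples as independent, which the livers of fetuses 8, 9 and 10 were not, so the p-values against liver are too small.

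DNMT3A, a writer of new methylation, was lowest in the liver. It was 157 CPM at the lowest, 174 at the median and 196 at the highest in the heart. It was 178 CPM at the lowest, 201 at the median and 249 at the highest in the libraries labelled gonads. It was 44.9 CPM at the lowest, 58.4 at the median and 79.8 at the highest in the liver. Every liver library was below every other organ library, which was so for 7.82% of all genes. DNMT3A was 2.84-fold higher in heart than in liver (log2 1.51, SE 0.11, adjusted p = 1.04e-11) and 3.34-fold higher in the libraries labelled gonads than in liver (log2 1.74, SE 0.12, adjusted p = 9.93e-13). The libraries labelled gonads and the heart were not called different (log2 0.23, SE 0.11, adjusted p = 0.0724). The highest liver value was that of fetus 3, whose heart muscle sum was also the highest of the liver libraries. ACTC1 led that sum, while TNNT2 was at most 35.4 CPM and MYH7 at most 57.7 CPM in any liver library. The relation of the sum to the DNMT3A value was not tested.

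DNMT3B, the other writer of new methylation, had another order, with the heart lowest. It was 3.91 CPM at the lowest, 5.40 at the median and 7.29 at the highest in the heart. It was 16.7 CPM at the lowest, 20.6 at the median and 24.3 at the highest in the libraries labelled gonads. It was 8.57 CPM at the lowest, 13.5 at the median and 18.2 at the highest in the liver. No heart library reached the lowest library of the other organs, as for 2.22% of all genes, while the ranges of labelled gonads and liver overlapped. DNMT3B was 3.72-fold higher in the libraries labelled gonads than in heart (log2 1.89, SE 0.17, adjusted p = 6.11e-10) and 2.50-fold lower in heart than in liver (log2 -1.32, SE 0.17, adjusted p = 2.63e-07). It was 1.49-fold higher in the libraries labelled gonads than in liver (log2 0.57, SE 0.18, adjusted p = 0.00697), a call that was lost with DESeq2 size factors (log2 0.40, adjusted p = 0.0533).

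**Figure D2:**
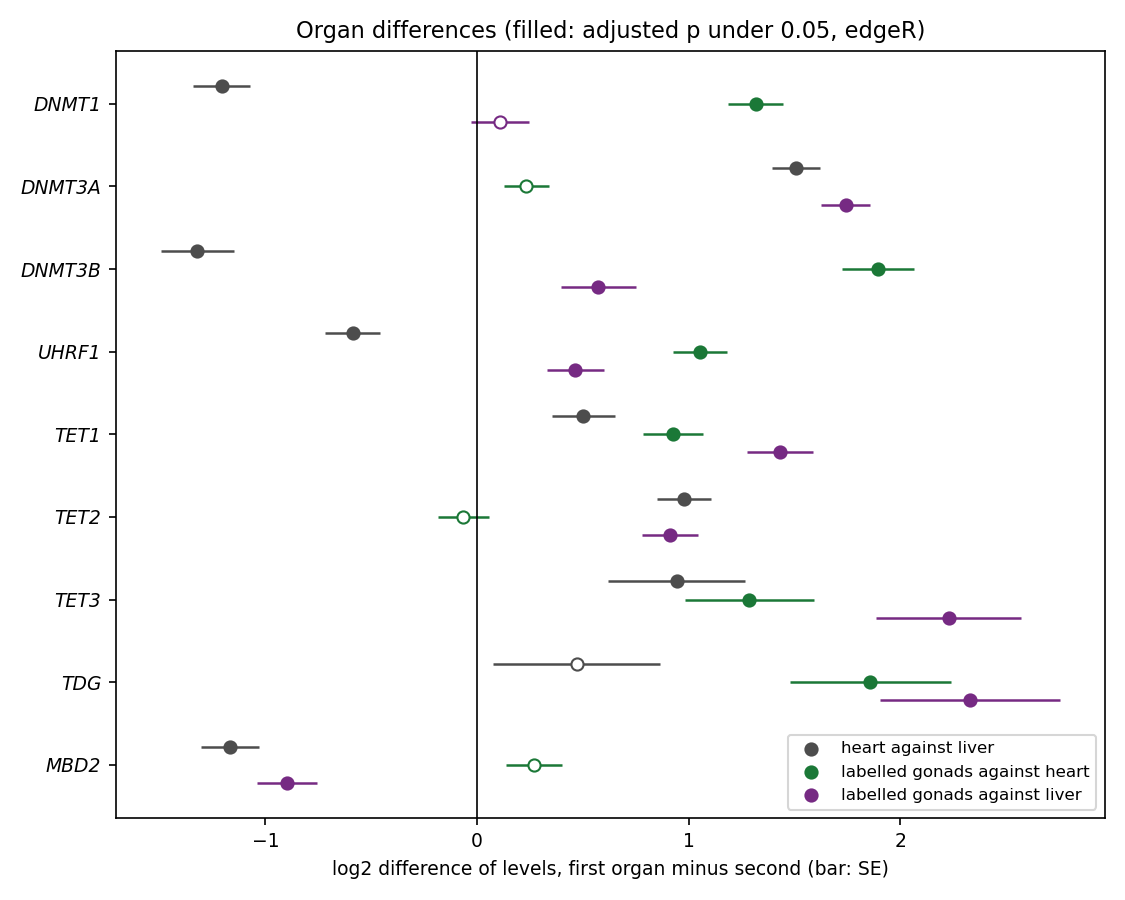
Log2 difference of level between organs for each gene, the first-named organ minus the second, with bars of 1 SE; filled points have an adjusted p under 0.05 (edgeR). DNMT3A and DNMT3B lie on opposite sides of 0 for heart against liver (1.51 and -1.32).

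The balance of the de novo writers differed in all 3 pairs of organs. The libraries held a median of 0.0337 DNMT3B counts per DNMT3A count in the heart, with a range of 0.0204 to 0.0463. In the libraries labelled gonads the median was 0.0990 and the range 0.0682 to 0.136. In the liver the median was 0.232 and the range 0.147 to 0.292. The 3 ranges did not overlap. The ratio was 7.12-fold lower in heart than in liver (exact two-sided permutation test, p = 0.000175, adjusted p = 0.000787), 3.19-fold higher in the libraries labelled gonads than in heart (exact permutation p = 8.23e-05, adjusted p = 0.000740) and 2.23-fold lower than in liver (exact permutation p = 0.000311, adjusted p = 0.000932). Each of these is the smallest p that its number of samples allows. Since the liver libraries of fetuses 8, 9 and 10 were not independent of each other, the p-values against liver are too small. The order held in the paired comparison (exact p = 0.0156 for the 7 fetuses of both pairs with the heart), where the 5 fetuses with labelled gonads and liver allow no p below 0.0625.

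**Figure D3:**
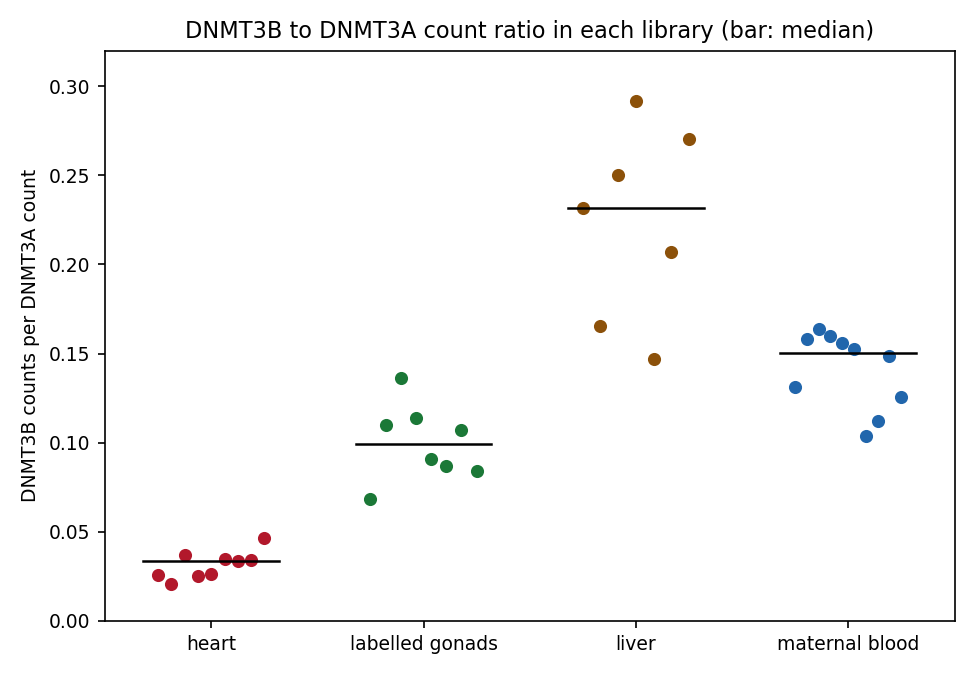
DNMT3B counts per DNMT3A count within each library, by tissue, with lighter fetuses to the left and a bar at the median. The heart (0.0204 to 0.0463), the libraries labelled gonads (0.0682 to 0.136) and the liver (0.147 to 0.292) occupy separate ranges.

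TET1, an oxidase of 5-methylcytosine with high levels in early embryonic cells, was highest in the libraries labelled gonads. It was 13.1 CPM at the lowest, 18.1 at the median and 22.4 at the highest in the heart. It was 25.1 CPM at the lowest, 37.3 at the median and 44.5 at the highest in the libraries labelled gonads. It was 10.7 CPM at the lowest, 13.1 at the median and 20.4 at the highest in the liver. Every library labelled gonads was above every other organ library, as for 6.6% of all genes. TET1 was 1.90-fold higher there than in heart (log2 0.93, SE 0.14, adjusted p = 4.93e-06) and 2.69-fold higher than in liver (log2 1.43, SE 0.16, adjusted p = 1.07e-08). Heart was 1.42-fold above liver (log2 0.50, SE 0.15, adjusted p = 0.00573), a call lost with DESeq2 size factors (log2 0.33, adjusted p = 0.0646).

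TET2, which lacks the DNA-binding CXXC domain of its relatives, was lowest in the liver. It was 37.7 CPM at the lowest, 47.9 at the median and 58.4 at the highest in the heart. It was 31.4 CPM at the lowest, 48.7 at the median and 56.5 at the highest in the libraries labelled gonads. It was 18.8 CPM at the lowest, 23.8 at the median and 32.1 at the highest in the liver. Every heart library was above every liver library, but the share of all genes that did the same was not computed. The lowest library labelled gonads (fetus 7) fell within the liver range. TET2 was 1.97-fold higher in heart than in liver (log2 0.98, SE 0.13, adjusted p = 3.27e-07) and 1.88-fold higher in the libraries labelled gonads than in liver (log2 0.91, SE 0.13, adjusted p = 1.14e-06). The difference between labelled gonads and heart was not called (log2 -0.07, SE 0.12, adjusted p = 0.696).

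TET3, the oxidase that acts on the paternal genome of the zygote, was lowest in the liver and highest in the libraries labelled gonads, apart from 1 library. It was 5.57 CPM at the lowest, 8.41 at the median and 11.9 at the highest in the heart. It was 2.53 CPM at the lowest, 23.4 at the median and 29.5 at the highest in the libraries labelled gonads. It was 2.57 CPM at the lowest, 3.97 at the median and 7.36 at the highest in the liver. The lowest library labelled gonads, that of fetus 1, lay below every liver and heart library, while the others, from 16.5 CPM upwards, lay above all of them. TET3 was 2.44-fold higher in the libraries labelled gonads than in heart (log2 1.29, SE 0.30, adjusted p = 0.000998) and 4.69-fold higher than in liver (log2 2.23, SE 0.34, adjusted p = 3.14e-06). Heart was 1.92-fold above liver (log2 0.94, SE 0.32, adjusted p = 0.0152), but not without the 5 libraries with few even counts (log2 0.78, adjusted p = 0.0740).

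TDG removes the oxidised bases that the TET enzymes make, and in the heart its SD (9.20 CPM, n = 9) was close to its mean (9.74 CPM). It was 1.96 CPM at the lowest (fetus 2), 6.28 at the median and 32.4 at the highest (fetus 10) in the heart. It was 20.8 CPM at the lowest, 34.7 at the median and 51.7 at the highest in the libraries labelled gonads. It was 3.70 CPM at the lowest, 6.52 at the median and 11.5 at the highest in the liver. Every library labelled gonads was above every liver library, but the share of all genes that did the same was not computed. The heart of fetus 10 lay within the range of the libraries labelled gonads. TDG was 3.63-fold higher in the libraries labelled gonads than in heart (log2 1.86, SE 0.38, adjusted p = 0.000214) and 5.02-fold higher than in liver (log2 2.33, SE 0.42, adjusted p = 3.42e-05). Heart and liver were not called different (log2 0.47, SE 0.39, adjusted p = 0.317).

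MBD2, which binds methylated DNA and recruits a repressive chromatin complex, was the only member called higher in liver than in heart and labelled gonads alike. It was 51.1 CPM at the lowest, 58.8 at the median and 69.9 at the highest in the heart. It was 52.0 CPM at the lowest, 71.7 at the median and 83.9 at the highest in the libraries labelled gonads. It was 82.3 CPM at the lowest (fetus 3), 136 at the median and 199.5 at the highest (fetus 10) in the liver. The lowest liver library fell within the range of the libraries labelled gonads and above all heart libraries. The share of all genes with every liver library above every heart library was not computed. MBD2 was 2.25-fold lower in heart than in liver (log2 -1.17, SE 0.14, adjusted p = 4.55e-08) and 1.86-fold lower in the libraries labelled gonads than in liver (log2 -0.90, SE 0.14, adjusted p = 4.42e-06). The libraries labelled gonads and the heart were not called different (log2 0.27, SE 0.13, adjusted p = 0.0996).

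Maternal blood was set beside the fetal organs on a scale normalized over all 4 tissues and tested over 25657 genes. The blood libraries were made with another kit than the organ libraries, so that tissue, animal and kit cannot be told apart in these comparisons. Against the heart, 8 of the 9 genes were higher in blood (31.3% of all genes) and 1 was lower (38.1%). Against the liver the counts were also 8 (30.2%) and 1 (41.7%), and against the libraries labelled gonads 5 (30.6%) and 2 (37.9%). In 4 genes every blood library was above every organ library (DNMT1, TET2, TET3 and MBD2), where 13.7% of all genes were, and in 0 every one was below (10.7%).

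TET2 and TET3 were far above every organ library in blood, and TET1 was not. TET2, which is often mutated in blood cancers, was 230 CPM at the lowest, 279 at the median and 357 at the highest in blood, and its highest organ library was at 60.9 CPM. It was 5.55-fold above heart (log2 2.47, SE 0.12, adjusted p = 2.84e-20), 5.81-fold above labelled gonads (log2 2.54) and 10.9-fold above liver (log2 3.45). TET3 was 92.5 CPM at the lowest, 106 at the median and 128 at the highest in blood, with 30.8 CPM in its highest organ library. It was 11.8-fold above heart (log2 3.57, SE 0.27, adjusted p = 1.82e-14), 4.86-fold above labelled gonads and 22.7-fold above liver (log2 4.51, SE 0.31, adjusted p = 2.89e-15). TET1 went another way, with 29.9 CPM at the median in blood. It was 1.51-fold above heart and 2.14-fold above liver but 1.26-fold below labelled gonads (log2 -0.33, SE 0.12, adjusted p = 0.0157), and the last call was lost without the 5 libraries with few even counts (adjusted p = 0.0555). Blood therefore held 0.282 TET1 counts per TET3 count at the median, whereas the organ medians ran from 1.63 to 3.35.

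UHRF1 was the gene that was lower in blood than in each organ. It was 34.3 CPM at the lowest, 41.4 at the median and 56.1 at the highest in blood, and was 1.51-fold below heart (log2 -0.59, SE 0.11, adjusted p = 2.20e-05), 3.13-fold below labelled gonads (log2 -1.65) and 2.27-fold below liver (log2 -1.18). DNMT1, its partner, was 138 CPM at the median in blood and 3.44-fold above heart (log2 1.78, SE 0.11, adjusted p = 2.81e-16), 1.38-fold above labelled gonads and 1.49-fold above liver. Blood held 0.294 UHRF1 counts per DNMT1 count at the median, below the lowest organ library (0.741). The 25 cell proliferation genes, summed, were 778 to 1191 CPM in blood and 1553 CPM or more in each organ library, and their part in the UHRF1 difference was not tested.

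Of the de novo writers, DNMT3B was 33.3 CPM at the median in blood and 5.81-fold above heart, 1.56-fold above labelled gonads and 2.33-fold above liver (log2 1.22, SE 0.16, adjusted p = 2.69e-08). DNMT3A was 236 CPM at the median in blood, 1.27-fold above heart and 3.63-fold above liver, and was not called different from the libraries labelled gonads (log2 0.12, SE 0.09, adjusted p = 0.272). The blood library of fetus 2 had the highest sum of the heart muscle genes, led by MYH7. It also had the highest values of DNMT3A (278 CPM), DNMT3B (43.9 CPM) and TET2 (357 CPM) in blood. Of the same list, ACTC1, TNNI3, MYL7 and TNNT2 reached at most 2.09, 0.28, 0.24 and 0.17 CPM in blood, and ACTN2 172 CPM. The blood library of fetus 5, with the next highest heart muscle sum (1056 CPM), had 218 CPM for DNMT3A, 33.99 CPM for DNMT3B and 285 CPM for TET2. The relation of the heart muscle sums to these values was not tested. MBD2 was 303 CPM at the median and 5.0-fold above heart, 4.15-fold above labelled gonads and 2.23-fold above liver (log2 1.15, SE 0.13, adjusted p = 2.82e-10). TDG was 32.5 CPM at the median, 3.16-fold above heart and 4.39-fold above liver, and was not called different from labelled gonads (log2 -0.20, SE 0.31, adjusted p = 0.590).

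The relation to fetal weight was tested in each tissue with a straight line (log2 change per 0.1 g) and with a natural spline of 3 degrees of freedom. None of the 36 slopes passed an adjusted p of 0.05 in edgeR, and 8 had an unadjusted p under 0.05. In the heart, 2 of those slopes were positive and 1 negative, where 16.4% and 12.7% of all genes had such slopes at that unadjusted p, and 5.22% and 1.54% at the adjusted p. In the liver, 1 was positive and 2 were negative (4.11% and 8.62% of all genes, and 0.136% and 1.41% at the adjusted p). In blood 1 was positive and 1 negative (4.53% and 5.16% of all genes, with 0 at the adjusted p). In the libraries labelled gonads 0 of the 9 had an unadjusted p under 0.05, where 3.45% of all genes had a positive and 2.41% a negative slope at that p. With DESeq2's Wald test, 1 gene passed the adjusted p in the heart (TDG) and 1 in the liver (DNMT3A), where 18.9% and 3.81% of all genes passed. With the transfer groups in place of weight, 0 of the 9 passed in any tissue (at most 2.17% of all genes, in the liver). With the transfer group as a covariate beside weight, 0 passed the adjusted p in any tissue, and 0 had an unadjusted p under 0.05 in the heart, the liver or the libraries labelled gonads. In blood, some members still had an unadjusted p under 0.05 in that fit. Several slopes that had not passed turned sign in that fit. These were TET3 (0.04), DNMT3B (0.28) and TET2 (0.11) in the liver, DNMT1 (0.13) in the heart, UHRF1 (-0.05) and TET1 (-0.04) in blood, and UHRF1 (0.01), DNMT3B (0.15), TET1 (0.15), TET2 (0.15), TDG (0.33) and MBD2 (0.09) in the libraries labelled gonads.

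**Figure D4:**
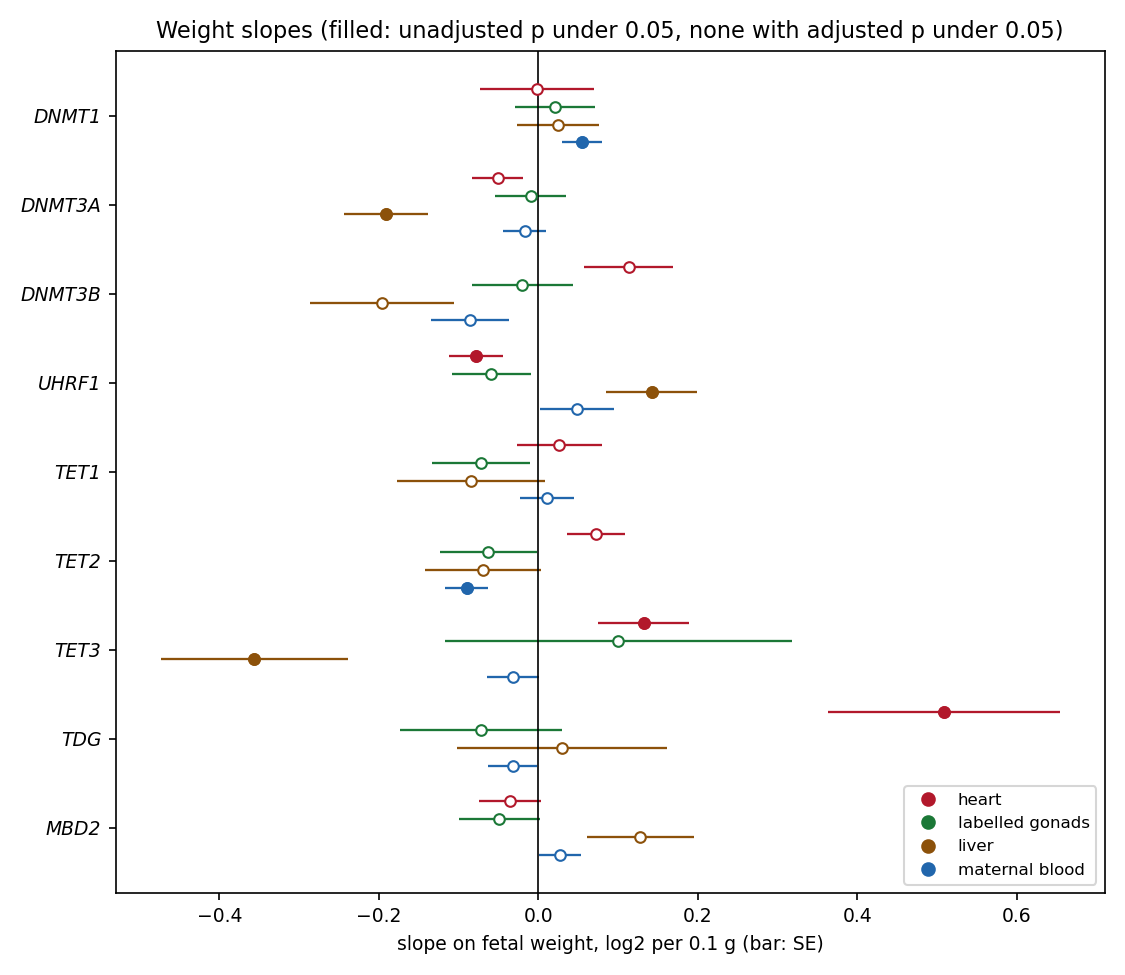
Slope of each gene on fetal weight in each tissue (log2 per 0.1 g, bars of 1 SE); filled points have an unadjusted p under 0.05 and no point has an adjusted p under 0.05 (edgeR). TDG in the heart (0.51) and TET3 in the liver (-0.36) lie farthest from 0.

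TDG in the heart had the steepest slope. Its level was 5.45, 1.96, 13, 4.04 and 4.71 CPM in the ET_D7 fetuses 1 to 5. In the ET_D9 fetuses 6, 8, 9 and 10 it was 6.28, 11.0, 8.79 and 32.4 CPM. The heaviest fetus was the highest, the second lightest was the lowest, and fetus 3 stood above its neighbours in weight. The slope was 0.51 log2 per 0.1 g (SE 0.15, p = 0.00547, edgeR adjusted p = 0.0595). It was 0.27 without fetus 10 (adjusted p = 0.547) and 0.61 without fetus 3 (adjusted p = 0.0103), where 0% and 24.8% of all genes passed. It also passed without fetus 9 (adjusted p = 0.0380, 10.3% of all genes), with DESeq2 size factors (adjusted p = 0.0486, 9.08%) and in DESeq2's Wald test (adjusted p = 0.00879, 18.9%). With all heart libraries in edgeR, 6.77% of all genes passed. The share of counts on mitochondrial genes moved with it. The libraries with the highest TDG (fetuses 10, 3, 8 and 9) had mitochondrial shares of 17.1% to 28.5%, and the others had 39.0% to 57.3%. Over the 9 heart libraries Spearman's rho with that share was -0.95 for TDG and for TET3 and 0.90 for DNMT3A, values that share library and depth. For the other members in the heart it ran from -0.83 (DNMT3B) to 0.60 (UHRF1 and MBD2). In the liver it was -0.93 for DNMT1, -0.82 for MBD2 and -0.71 for UHRF1, and from -0.46 to 0.25 for the others. In the libraries labelled gonads it ran from -0.60 to 0.02. The part of this share in the slopes was not tested.

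The other heart slopes under an unadjusted p of 0.05 were smaller. TET3 was 5.57 CPM in fetus 2 and 11.9 CPM in fetus 10, with a slope of 0.13 (SE 0.06, p = 0.0411, edgeR adjusted p = 0.154). The slope passed without fetus 3 (slope 0.16, adjusted p = 0.0303), where 24.8% of all genes passed. UHRF1 had the opposite sign, with 73.6 CPM in fetus 5, 51.5 CPM in fetus 8 and a slope of -0.08 (SE 0.03, p = 0.0429, edgeR adjusted p = 0.158). Fetus 2 was the lowest and fetus 10 the highest heart library for 4 genes, namely DNMT3B, TET2, TET3 and TDG.

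In the liver, the slope of DNMT3A was negative. Its level was 78.4 CPM in the averaged fetuses 1 and 2, and 79.8, 57.6 and 61.5 CPM in fetuses 3, 4 and 5. It was 58.4, 44.9 and 49.8 CPM in fetuses 8, 9 and 10. The slope was -0.19 (SE 0.05, p = 0.00504, edgeR adjusted p = 0.146). It passed with every library counted separately (adjusted p = 0.0473, 2.23% of all genes), which takes the near-identical livers of fetuses 1 and 2 as separate samples. It also passed in DESeq2's Wald test (adjusted p = 0.0373, 3.81% of all genes). With each liver sample left out in turn, it ran from -0.20 to -0.16, and its lowest edgeR adjusted p was 0.189. With the transfer group as a covariate, 0 liver slopes of the members had an unadjusted p under 0.05. TET3 was 5.66, 6.10, 3.97 and 7.36 CPM in the lighter livers and 3.16, 2.57 and 2.71 CPM in those of fetuses 8, 9 and 10. These sets did not overlap, but the share of all genes that did the same was not computed. The slope of TET3 was -0.36 (SE 0.12, p = 0.0134, edgeR adjusted p = 0.235), and 0.04 with the transfer group as a covariate (adjusted p = 0.992). Since the libraries of fetuses 8, 9 and 10 were not independent of each other, these liver p-values are too small. Heart muscle genes, summed on the organ scale, were 58.3 CPM in the averaged livers of fetuses 1 and 2. They were 2039, 693 and 400.2 CPM in the livers of fetuses 3, 4 and 5, and 172, 95.2 and 39.4 CPM in those of fetuses 8, 9 and 10. The relation of these sums to the liver values and slopes was not tested.

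UHRF1 in the liver had a positive slope. Its level was 88.5, 73.1, 56.3 and 88.5 CPM in the lighter livers and 108, 103 and 132 CPM in fetuses 8, 9 and 10. These sets did not overlap, but the share of all genes that did the same was not computed. The liver libraries of fetuses 8, 9 and 10 were not independent of each other, so the liver p-value is too small. The slope was 0.14 (SE 0.06, p = 0.0331, edgeR adjusted p = 0.333), against -0.08 in the heart and -0.06 in the libraries labelled gonads (SE 0.05), which turned to 0.01 with the transfer group as a covariate. The test of the difference between the 3 slopes passed for UHRF1 (edgeR interaction, adjusted p = 0.0379) and for 1 of the 9 genes in all, where 5.33% of all genes passed (18.1% at an unadjusted p under 0.05). The call was lost with a block for fetus (adjusted p = 0.103), without the liver of fetus 9 (adjusted p = 0.0633) and without the 5 libraries with few even counts (adjusted p = 0.576).

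With the spline, TET3 in the libraries labelled gonads was the only gene called (edgeR p = 1.55e-05, adjusted p = 0.00250), where 5.28% of all genes were called in these libraries. The spline called 0 members in the heart (0% of all genes), the liver (1.71%) and blood (0.129%), and in the heart and liver 0 members had an unadjusted p under 0.05 (7.99% and 10.7% of all genes). A negative binomial additive model, the kind the study fitted along weight, did call members in the heart, the liver and blood. Those calls are given in the last section with the shares of all genes. The TET3 values in the libraries labelled gonads were 2.53 CPM in fetus 1 and 25.1, 29.2 and 23.6 CPM in fetuses 3, 4 and 5. They were 29.5 CPM in the averaged fetuses 6 and 8, and 19.8, 23.1 and 16.5 CPM in fetuses 7, 9 and 10. The lightest fetus alone was low, and in its library many other genes were low too. The part of this in the TET3 value was not tested. Without that fetus the spline p was 0.339 (adjusted p = 0.720), and with every library counted separately the adjusted p was 0.184. TDG in the same libraries had an unadjusted spline p of 0.0167 (edgeR adjusted p = 0.148), where 22.3% of all genes had one under 0.05. Fetus 7, which had the highest mitochondrial share of these libraries (7.23%), had the lowest values of TDG (20.8 CPM), TET1 (25.1 CPM), TET2 (31.4 CPM) and MBD2 (52.0 CPM).

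**Figure D5:**
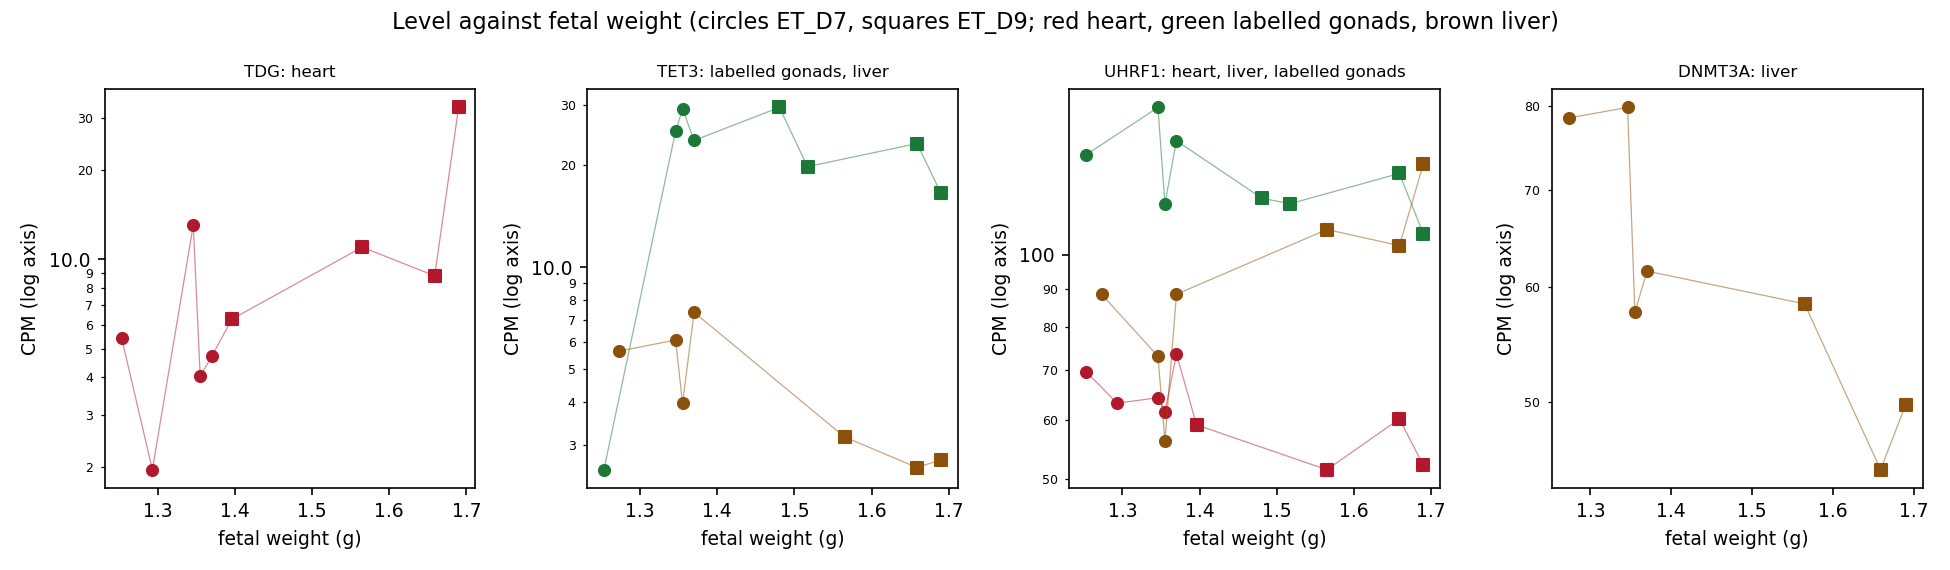
Level (CPM over the organ libraries, log axis) against fetal weight (g) for TDG in the heart, TET3 in labelled gonads and liver, UHRF1 in the 3 organs and DNMT3A in the liver, with circles for ET_D7, squares for ET_D9, red for heart, green for labelled gonads and brown for liver. TDG in the heart reaches 32.4 CPM in the heaviest fetus, and TET3 in the labelled gonads is at 2.53 CPM in the lightest fetus and at 16.5 CPM or more in the others.

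In maternal blood the slopes were shallow. TET2 had a slope of -0.09 (SE 0.03, p = 0.00542, edgeR adjusted p = 0.392), from 357 CPM in the blood library of fetus 2 to 230 CPM in that of fetus 9. DNMT1 had a slope of 0.05 (SE 0.03, p = 0.050, edgeR adjusted p = 0.515) and its highest value, 168 CPM, in the blood library of fetus 10. With the spline, DNMT3B (p = 0.0238, edgeR adjusted p = 0.454) and UHRF1 (p = 0.0195, adjusted p = 0.442) had an unadjusted p under 0.05, as 9.77% of all genes had.

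The genes that work with the 9 were counted in lists, with the same test between organs. Of 15 partners of the writers and factors that direct them, 4 were higher in the libraries labelled gonads than in both other organs (14.6% of all genes) and 0 lower, 2 were higher and 5 lower in the liver (22.5% and 19%), and 1 was higher and 1 lower in the heart (10.6% and 8.07%). USP7, a deubiquitinase that stabilises DNMT1 and UHRF1, was 740 ± 141 CPM in the liver (SD, n = 7), 177 ± 30.0 in the heart (n = 9) and 181 ± 30.3 in the libraries labelled gonads (n = 8). ZFP57, which protects methylation at imprinted genes, was higher in the heart (7.97 ± 2.52 CPM) than in labelled gonads (1.75 ± 0.749) or liver (0.854 ± 0.681). TRDMT1, a relative of the DNMTs that methylates transfer RNA, was 9.49 ± 2.74 CPM in the liver and lower than in the heart (27.1 ± 4.53). DPPA3 was called higher in the liver on counts in 2 of its 8 libraries (26 and 10). The list's median log2 difference was 0.54 for labelled gonads against liver, 0.31 for labelled gonads against heart and 0.08 for heart against liver.

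Of 14 other genes (methyl-CpG readers, their relatives and subunits of their complexes), 5 were higher and 4 lower in the libraries labelled gonads (14.6% and 12.9% of all genes), 2 were higher and 6 lower in the liver (22.5% and 19%), and 0 were higher or lower in the heart (10.6% and 8.07%). HDAC2, a histone deacetylase of the MBD2 complex, was 222 ± 42.5 CPM in the libraries labelled gonads, 94.3 ± 29.2 in the heart and 43.8 ± 12.6 in the liver. ZBTB38, a zinc finger reader of methylated DNA (8.56 ± 3.20 CPM), and MBD5, a relative of MBD2 (11.8 ± 1.88 CPM), were lower in the liver than in both others. The list's median log2 difference was 0.45 for labelled gonads against liver, 0.24 for labelled gonads against heart and 0.17 for heart against liver.

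Of 19 partners of demethylation and base excision repair, 3 were higher and 4 lower in the libraries labelled gonads (14.6% and 12.9% of all genes), 6 were higher and 8 lower in the liver (22.5% and 19%), and 2 were higher and 0 lower in the heart (10.6% and 8.07%). The stress-inducible GADD45G was 79.4 ± 15.4 CPM in the heart, 9.68 ± 2.40 in the liver and 1.87 ± 0.701 in the libraries labelled gonads. Its relative GADD45B was 37.2 ± 6.13 CPM in the liver, 16.9 ± 2.76 in the heart and 1.76 ± 0.316 in the libraries labelled gonads. The list's median log2 difference was 0.40 for heart against liver, 0 for labelled gonads against heart and 0.07 for labelled gonads against liver.

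Of 19 genes of methyl donor and TET cofactor metabolism, in the liver 9 were above both other organs and 3 below (22.5% and 19% of all genes), 2 were higher and 6 lower in the libraries labelled gonads (14.6% and 12.9%), and 1 was higher and 3 lower in the heart (10.6% and 8.07%). BHMT, which remethylates homocysteine with betaine, was 185 ± 53.2 CPM in the liver and 0.0732 ± 0.0968 in the heart. MAT1A, the liver form of the S-adenosylmethionine synthetase, was 151 ± 51.1 CPM in the liver, 5.02 ± 0.547 in the libraries labelled gonads and 2.25 ± 0.655 in the heart. AHCY, which clears S-adenosylhomocysteine, was 3285 ± 567 CPM in the liver, 304 ± 28.3 in the heart and 141 ± 20.3 in the libraries labelled gonads. GNMT was called higher in the liver at 0.568 ± 0.649 CPM. The list's median log2 difference was -1.07 for labelled gonads against liver, -0.25 for labelled gonads against heart and -0.54 for heart against liver.

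Of 25 cell proliferation genes, in the liver 11 were above both others and 0 below (22.5% and 19% of all genes), 4 were higher and 2 lower in the libraries labelled gonads (14.6% and 12.9%), and 1 was higher and 9 were lower in the heart (10.6% and 8.07%). RRM2, a subunit of ribonucleotide reductase, was 674 ± 145 CPM in the liver, 138 ± 16.6 in the libraries labelled gonads and 94.3 ± 13.4 in the heart. MKI67, a marker of dividing cells, was 676 ± 111, 149.7 ± 33.3 and 113 ± 22.7 CPM, respectively. The transcription factors E2F1 (195 ± 42.9 CPM) and E2F2 (129 ± 19.98 CPM) were also higher in the liver. The list's median log2 difference was -0.67 for heart against liver, 0.34 for labelled gonads against heart and -0.36 for labelled gonads against liver. DNMT1 and UHRF1 shared with this list the low values in the heart, and UHRF1 was higher in labelled gonads than in liver, where the list's median was lower. The part of dividing cells in the levels of the 9 genes was not tested.

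The genes whose log2 CPM followed each member most closely over the 24 organ samples had a Pearson r from 0.92 to 0.99, among 19489 genes, and these values reflect differences between organs that many genes share. They were EGFLAM, PKHD1 and ELF4 for DNMT1, TDP1, PFAS and SH3BP5 for UHRF1, and ZFP2, ZMIZ1 and RIMKLB for DNMT3A. They were ENDOV, DDX52 and ZNF383 for DNMT3B, ARHGAP5, RBM41 and SEPTIN11 for TET1, and ROCK2, CTNNAL1 and STAU2 for TET2. They were LRRC42, NUSAP1 and MAP4K3 for TET3, MFSD14A, NUP153 and CFDP2 for TDG, and CMPK1, CENPU and PIGW for MBD2.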

How the data were processed

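Reads were checked with FastQC (0.11.9), trimmed with Trimmomatic, mapped with STAR (2.7.0b) and counted per gene with featureCounts (Subread 2.0.3), per the submitters' processing notes. The authors deposited whole-number counts, with no normalization stated. The near-identical pairs, the liver libraries that match weighted sums of each other and the unequal shares of even counts leave it unknown whether all columns are counts as first obtained. The genome index was ARS-UCD1.3, and the counting options for strand and multi-mapping reads are not given in the sources used here. Symbols were matched for 31630 of 35092 identifiers in a RefSeq table (ARS-UCD2.0), and no coordinates were taken from it. UHRF1 overlaps ARRDC5, which had at most 81 counts in an organ library.

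From the counts, organ and blood contrasts (genes with at least 1 count) and weight fits (at least 10 counts in at least 4 libraries) were computed with edgeR 4.0.16 (R 4.3.3, TMM, quasi-likelihood test, Benjamini-Hochberg adjustment over all genes tested). DESeq2 1.42.0 and a negative binomial additive model (mgcv 1.9.3) were alternatives. The study itself chose genes that varied with weight by a negative binomial additive model, at p under 0.05. Exact permutation tests used SciPy 1.17.1. The edgeR fits were tested on simulated data. Libraries of one animal share its number, so that a block for the animal was an alternative: deviations of same-numbered libraries correlated between -0.10 and 0.21. Totals of 18231089 to 40812354 counts set the precision.

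The members and lists were chosen with earlier results of these data known. All 9 members are named. Of each list at most 4 genes are named, those called against both other organs with the largest smaller log2 difference, and as genes of like pattern the 3 with the highest Pearson r. One gene that this rule names is not reported here.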

Additional observations from a re-analysis of the deposited data

Results flagged for a closer look

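Among the 36 combinations of gene and tissue, 3 held a library far from the others on the log2 scale by Dixon's ratio (the gap to the nearest library over the whole range), and chance gives about 1 in 20. TET3 in the library labelled gonads of fetus 1 had a ratio of 0.768 (critical value 0.526 for 8 samples), with 2.53 CPM against 16.5 to 29.5 CPM in the others. In that library many other genes were low too. TET1 in the liver of fetus 3 had a ratio of 0.662 (critical value 0.568 for 7 samples), with 20.4 CPM against at most 14.0 CPM in the others. That liver library had the highest heart muscle sum (2126 CPM on the scale of all 4 tissues), led by the single gene ACTC1. TET1 in the heart of fetus 5 had a ratio of 0.532 (critical value 0.493 for 9 samples), with 13.1 CPM against 17.6 CPM or more in the others. The weight slope of UHRF1 differed between the 3 organs (edgeR interaction, adjusted p = 0.0379), with slopes of -0.08 in the heart, -0.06 in the libraries labelled gonads and 0.14 log2 per 0.1 g in the liver. The call was lost with a block for fetus (adjusted p = 0.103), without the liver of fetus 9 (adjusted p = 0.0633) and without the 5 libraries with few even counts (adjusted p = 0.576). None of these was tested further for a cause.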

How the results depend on the processing

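The number of genes called stayed between 7 and 8 of 9 for heart against liver, 6 and 7 for labelled gonads against heart, and 7 and 8 for labelled gonads against liver, over 11 alternatives each. DESeq2 size factors moved differences from the liver by -0.17 (heart) and -0.16 log2 (labelled gonads) over the 178 genes of the lists, and that of blood from the liver by -0.13. The additive model called 2 genes in the heart (TDG, UHRF1), 4 in the liver (DNMT3A, DNMT3B, TET3, MBD2) and 2 in blood (DNMT1, TET2) along weight, where it called 26.5%, 23.1% and 10.9% of all genes. The gonad spline called 0 members without fetus 1 and with every library separate. For the slopes, DESeq2 size factors and DESeq2's Wald test called 1 member in the heart (9.08% and 18.9% of all genes). The Wald test and separate libraries called 1 in the liver (3.81% and 2.23% of all genes). Leaving out each heart library in turn gave 0 to 2 members, with 2 without fetus 3 (24.8% of all genes) and 1 without fetus 9 (10.3%). The interaction called 0 members with the replicate block (1.65% of all genes), without the liver of fetus 9 (2.63%), and without the 5 libraries with few even counts (1.55%). In the paired sign permutation (the replicate block for ratios), DNMT3B to DNMT3A between labelled gonads and liver was -1.09 log2 (exact p = 0.0625), UHRF1 to DNMT1 for the same organs 0.36 (exact p = 0.125) and TET1 to TET3 between labelled gonads and heart 0.12 (exact p = 0.953). UHRF1 to DNMT1 between labelled gonads and heart was -0.31 (exact permutation p = 0.0345) with every library separate, against -0.30 (p = 0.0518). The replicate block changed no other call. The cause of these changes was not tested. The lowest counts of a member in a library were 33 for TDG and 42 for TET3.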
